A study of Rattus norvegicus with 6 samples.

Results

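The annexins and galectins described here are 10 genes of the rat: the annexins Anxa1, Anxa2, Anxa3, Anxa4, Anxa5, Anxa6 and Anxa7, the galectins Lgals1 and Lgals3, and Lgals3bp, a secreted glycoprotein that galectins bind. They are 10 of the 29468 gene symbols in the deposited tables, and they were chosen by name after their levels in these samples were known. The values that compare the 2 cell types are therefore given for these genes as a description, without a test. All 10 were higher in repair Schwann cells (RSCs) than in Schwann cell precursors (SCPs) in every sample, from 1.83 times the mean for Anxa6 to 1530 times for Lgals3.

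RNA was sequenced from 3 samples of SCPs and 3 samples of RSCs, all from rats of the LEWIS strain labelled as wild type. The study's methods state that grafted cells came from transgenic LEWIS rats with a red fluorescent reporter. They name no separate source for the cells used for RNA, and which applies to these samples is not settled here. SCPs, the embryonic cells from which Schwann cells form, came from the sciatic nerve and brachial plexus of untreated embryos at embryonic day 14. RSCs, the state that adult Schwann cells enter after an injury, came from the sciatic nerve distal to a cut in rats aged 10 weeks, 1 week after that cut. Both were dissociated with enzymes, and the methods name a short plating on uncoated plastic that depletes macrophages, fibroblasts and other adhering cells before use. No sorting by a marker is named. The study reports that most prepared cells of both types carried the Schwann cell marker Sox10, by immunolabeling of cultured cells. Age, tissue, injury and cell type changed together between the groups and cannot be told apart. The 3 samples of a group were separate preparations of cells per the study, and p-values measure the spread between these preparations.

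Annexins are soluble proteins that dock onto acidic phospholipids of a membrane when calcium rises, and they take part in vesicle traffic, in the sealing of torn membranes and in the clearance of dying cells. Galectins bind sugar chains that end in galactose and link glycoproteins at the cell surface and in the matrix, while in the cytosol they recognise damaged vesicles. In injured nerve, galectin-3 is known from macrophages and from Schwann cells that take up myelin debris, and an oxidised form of galectin-1 is known to promote the growth of axons.

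Values are FPKM, sequenced fragments scaled to the length of the transcript and to all mapped fragments of the sample, which the authors computed with Cufflinks. Since FPKM is divided by length, levels can be compared between genes. FPKM of all named transcripts of a symbol were summed. Log2 fold changes are differences of mean log2(FPKM + 1), RSC minus SCP, so that they understate the change of genes with low values, and their standard error (SE) comes from a limma model fitted to the 13003 genes that averaged 1 FPKM or more over the 6 samples. All 10 genes passed that filter, Lgals3 through its level in RSCs alone. The median gene of the 13003 had a log2 fold change of -0.17, and of 0.02 when samples were scaled by the median of ratios, so a log2 fold change near these values is that of the typical gene.

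The low FPKM of genes with a single transcript fell in regular steps, and 1 step was taken as 1 sequenced fragment. Between 94.6% and 95.9% of these low values lay within 0.05 fragments of a multiple of 0.5 fragments, where evenly spread values would do so in 20% of cases. The steps gave between 4750000 and 6180000 mapped fragments per sample, highest in SCP replicate 2 and lowest in RSC replicate 1. Transcripts with no gene name carried 26.1% to 31.9% of the FPKM in SCPs and 18.6% to 23.4% in RSCs, and were not part of the gene levels unless stated.

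The cell type markers were examined before the members. Sox10, the transcription factor of the whole Schwann lineage, lay between 175 and 181 FPKM in SCPs and between 143 and 149 in RSCs. Of 11 tested markers of the lineage 7 were higher and 1, Sox10, lower in RSCs (limma, p under 0.01). Among all 13003 tested genes 18.1% were higher and 22.4% lower at that threshold, and the marker counts stand beside these shares. S100b, which Schwann cells gain as they mature, was at 3.21 to 19.3 FPKM in SCPs and 782 to 924 in RSCs. Of 15 leukocyte markers tested, 14 were higher in RSCs (limma, p under 0.01), and the summed FPKM of the 19 in the tables was 24.1 to 71 in SCPs and 3025 to 3834 in RSCs. Lyz2, the lysozyme of macrophages, was at 1468 to 1770 FPKM in RSCs and Ptprc, the pan-leukocyte phosphatase CD45, at 7.33 to 11.9. Cd3e and S100a8 were listed at 0 in all SCP samples, and Cybb was listed at 0 in RSCs, where unnamed transcripts at its locus held 29.7, 37.1 and 34.7 FPKM. Of 8 fibroblast markers 7 were higher in RSCs, with sums of 643 to 1022 in SCPs and 5380 to 8029 in RSCs, and none was at 0 throughout a group. Among other lists, 1 of 7 endothelial and 1 of 5 mural markers were higher in RSCs, near the 18.1% of all tested genes. Of 4 perineurial markers 2 were higher and 1 was lower. Lower in RSCs were 4 of 4 erythroid, 5 of 6 skeletal muscle and 2 of 4 neuronal markers tested. The part of other cell types in the levels described below was not tested, and in bulk RNA fewer cells of a type and less RNA per cell cannot be told apart.

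**Figure D1:**
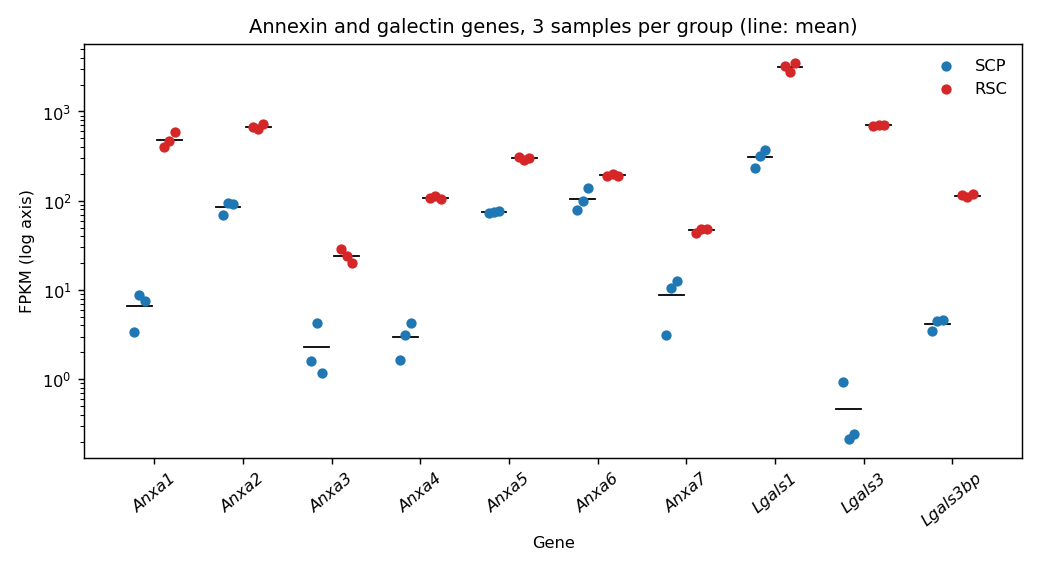
FPKM on a log axis of the 10 genes in the 3 SCP samples (blue) and 3 RSC samples (red), 1 point per sample, with the group mean as a line. The 2 groups do not overlap for any gene, the nearest being Anxa6 with 138 FPKM in the highest SCP sample and 188 in the lowest RSC sample. Over all tested genes, 24.9% had groups apart with RSCs higher.

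Promoter sequences show what lies just before the starts of these genes. RefSeq promoters on the GRCr8 assembly were at hand for 7 of the 10 genes, and the 250 bases before each annotated start were searched on both strands for 4 short motifs. Sequences are printed 5′ to 3′ along the gene's strand, with motif letters in capitals, for Anxa1 and Lgals3bp, whose levels differed widely, for Anxa2, whose promoter held 3 of the 4 motifs, and for Anxa5, whose level differed less.
Anxa1, chr1:227303733-227303982, minus strand: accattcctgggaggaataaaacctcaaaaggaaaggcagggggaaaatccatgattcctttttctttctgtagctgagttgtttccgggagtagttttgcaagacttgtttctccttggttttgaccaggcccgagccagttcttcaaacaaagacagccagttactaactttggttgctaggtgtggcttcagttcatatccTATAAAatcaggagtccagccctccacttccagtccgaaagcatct
Lgals3bp, chr10:104127849-104128098, minus strand: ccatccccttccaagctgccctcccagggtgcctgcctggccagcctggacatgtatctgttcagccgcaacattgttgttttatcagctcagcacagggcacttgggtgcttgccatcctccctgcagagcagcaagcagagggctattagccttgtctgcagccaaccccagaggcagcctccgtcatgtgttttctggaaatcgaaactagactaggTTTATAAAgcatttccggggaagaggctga
Anxa2, chr8:78986002-78986251, plus strand: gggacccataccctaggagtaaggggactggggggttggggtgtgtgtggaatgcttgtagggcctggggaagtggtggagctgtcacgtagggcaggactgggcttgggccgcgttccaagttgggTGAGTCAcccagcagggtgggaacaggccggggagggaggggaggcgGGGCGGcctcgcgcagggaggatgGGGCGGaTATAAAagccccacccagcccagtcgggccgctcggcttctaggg
Anxa5, chr2:121272697-121272946, minus strand: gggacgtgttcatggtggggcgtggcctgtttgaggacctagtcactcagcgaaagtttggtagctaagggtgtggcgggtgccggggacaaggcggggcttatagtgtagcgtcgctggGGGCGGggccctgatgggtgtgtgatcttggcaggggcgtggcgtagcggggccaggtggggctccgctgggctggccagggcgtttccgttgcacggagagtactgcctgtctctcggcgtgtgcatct

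The letters TATAAA, the core of the TATA box, stood in 3 of the 7 promoters (Anxa1, Anxa2 and Lgals3bp) and in 12.9% of all 33469 promoters of this length. In Anxa1 they began 46 bases before the start, in Anxa2 45 bases and in Lgals3bp 28 bases. Anxa4, whose log2 fold change of 4.83 was above the 4.48 of Lgals3bp, held no TATAAA and is not among the sequences printed. A link between a motif and the size of a change was not tested. TGANTCA, which AP-1 factors bind, stood in 1 of the 7 (Anxa2, beginning 123 bases before the start) and in 6.34% of all promoters. It reads the same on both strands, so each match counts once. The GC box GGGCGG stood in 4 of the 7 (Anxa2, Anxa3, Anxa4 and Anxa5) and in 30.5% of all promoters, and CCAAT stood in 2 of the 7 (Anxa4 and Anxa7) and in 34% of all. In Lgals3bp the TATAAA matches of the 2 strands overlap. A match describes the letters only and shows no binding.

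Anxa1, an inducer of the resolution of inflammation that glucocorticoids raise, showed the widest change among the annexins. The gene lies on chromosome 1 from 237893983 to 237921165 (rn6, as are the positions that follow). Its FPKM was 3.35, 8.83 and 7.46 in SCP replicates 1 to 3 and 403, 464 and 589 in RSC replicates 1 to 3. Every RSC sample was far above every SCP sample, and SCP replicate 1 was the lowest. The log2 fold change was 6.07 (SE 0.33), and the ratio of means was 74.1.

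The named transcripts of Anxa1 differ in where they begin. The RefSeq transcript NM_012904.2 carried 81.3%, 85.1% and 85.3% of the gene's FPKM in RSCs and 88.6% and 84.4% in SCP replicates 2 and 3. Cufflinks gave this transcript the status LOWDATA in place of OK in every sample, so its share is uncertain. In SCP replicate 1 it was listed at 0, and the transcript XM_006231159.1, which begins further upstream, carried the whole value. Unnamed transcripts at the locus added 4.75 FPKM in SCP replicate 1 and 1.65 in SCP replicate 2, and none in the other samples. With them the log2 fold change was 5.65.

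Anxa4, an annexin that aggregates membranes and is common in epithelia, followed with a log2 fold change of 4.83 (SE 0.25). It lies on chromosome 4 from 118538771 to 118595601. Its FPKM was 1.66, 3.1 and 4.22 in SCPs and 106, 113 and 105 in RSCs. The RSC samples lay close together, with a coefficient of variation (CV, the SD over the mean) of 4%, while the SCP samples varied by 42.9%.

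Anxa3, a further membrane-binding annexin, had the lowest mean of the annexins in both groups. Its locus spans 14371921 to 14426507 on chromosome 14. Its FPKM was 1.58, 4.22 and 1.17 in SCPs and 28.5, 24 and 20 in RSCs, with a log2 fold change of 3.02 (SE 0.36). The groups did not overlap, although the SCP samples had the widest relative spread of the annexins, with a CV of 71.2%. The transcript XM_006250694.2, with a length of 2613 bases between those of the other two, was listed at 0 in all 3 SCP samples and carried 19.5%, 29.5% and 45.3% of the gene's FPKM in the RSC samples. Its share thus differed widely among RSC samples, and it was 5.56, 7.07 and 9.06 FPKM there. It and XM_006250696.2 had the status LOWDATA in every sample, so the split between them is uncertain. When only the highest transcript of each gene was kept, the log2 fold change of Anxa3 was 2.44.

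Anxa2, which pairs with S100a10 in a complex at the plasma membrane that binds plasminogen and its activator, was the most abundant annexin in RSCs. It lies on chromosome 8 from 75687134 to 75723589. Its FPKM was 69.7, 95.2 and 91.2 in SCPs and 669, 643 and 717 in RSCs, and the log2 fold change was 2.98 (SE 0.13). Both groups were tight, with CVs of 16.1% and 5.55%.

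Anxa7, known as synexin and named for its part in the fusion of secretory granules, was the annexin whose fold change rested most on 1 sample. Its locus spans 4252739 to 4281296 on chromosome 15. Its FPKM was 3.11, 10.4 and 12.5 in SCPs and 43.7, 48.8 and 47.9 in RSCs, with a log2 fold change of 2.48 (SE 0.45). Without SCP replicate 1, the low sample, it was 1.95, under 4-fold. In that sample an unnamed transcript at the locus held 7.51 FPKM, which brings the total to 10.6, beside 10.4 and 12.5 in the other SCP samples. In RSCs such transcripts held 12.6, 13 and 13.4 FPKM. The named value was also split between samples: NM_130416.2 carried all of it in the RSC samples and in SCP replicate 1, XM_006251627.2 all of it in SCP replicate 2, and both shared it in SCP replicate 3. NM_130416.2 had the status LOWDATA in every RSC sample, so this split is uncertain.

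Anxa5, the phosphatidylserine binder that is used as a reagent to mark dying cells, had the most even values in SCPs. It lies on chromosome 2 from 123162477 to 123193178. Its FPKM was 72.8, 75.1 and 77.1 in SCPs and 312, 283 and 299 in RSCs, so that the CVs were 2.84% and 4.82%. The log2 fold change of 1.98 (SE 0.07) lay just under 4-fold and crossed it with the highest transcript per gene, at 2.07, with median-of-ratios scaling, at 2.19, and barely without RSC replicate 2, at 2.01. The transcript NM_013132.1 carried 71.6% to 74.6% of the value in SCPs and 76.6% to 80.7% in RSCs, with the status LOWDATA in SCP replicate 2.

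Anxa6, the largest annexin, with a doubled core that can bridge membranes, changed least of the 10. Its locus spans 40320581 to 40375605 on chromosome 10. Its FPKM was 78.1, 98.5 and 138 in SCPs and 188, 199 and 189 in RSCs, and the log2 fold change was 0.90 (SE 0.20). The groups came near each other, and the distance to the median gene was small beside the other annexins. Unnamed transcripts at the locus held between 27.6 and 62 FPKM in all 6 samples.

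**Figure D2:**
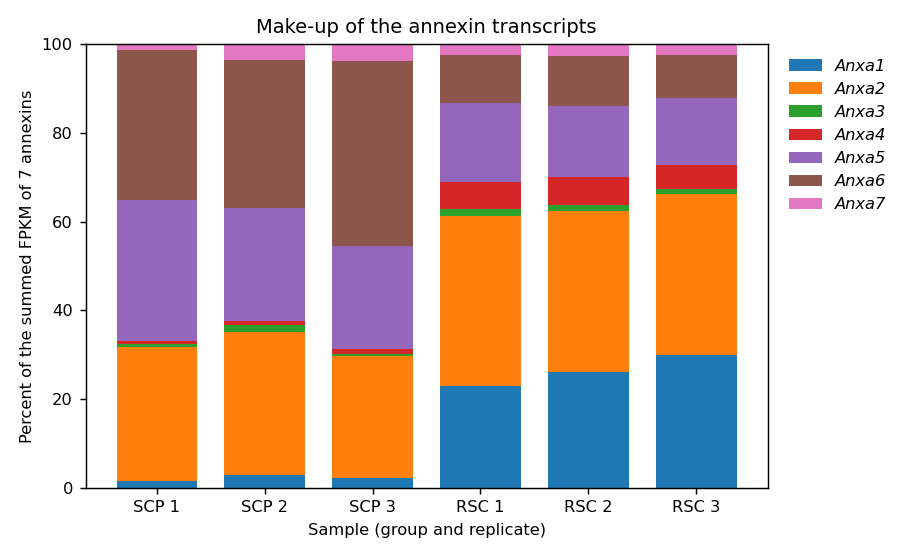
Percent of the summed FPKM of the 7 annexins that each annexin carried, in each of the 6 samples (stacked bars, 100% in all). Anxa6 took 33.3% to 41.7% in SCPs and 9.6% to 11.2% in RSCs, while Anxa1 went from 1.45% to 2.99% to 23% to 29.9%.

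The summed FPKM of the 7 annexins was 230.3, 295 and 332 in SCPs and 1750, 1775 and 1967 in RSCs. Their proportions differed between the groups, as the stacked plot of annexin shares shows. Anxa2 held 27.5% to 32.2% of the sum in SCPs and 36.2% to 38.2% in RSCs. Anxa5 held 23.2% to 31.6% in SCPs and 15.2% to 17.8% in RSCs. Anxa4 went from at most 1.27% in SCPs to at least 5.36% in RSCs. The annexins that were most abundant in SCPs beside Anxa2, that is Anxa6 and Anxa5, were those with the smaller fold changes.

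Lgals3, the galectin with a long tail through which it forms oligomers, was nearly undetected in SCPs. It lies on chromosome 15 from 24153602 to 24165537 and has a single transcript in the tables. Its FPKM was 0.92, 0.214 and 0.242 in SCPs and 692, 701 and 712 in RSCs. By the step size these SCP values correspond to 4, 1 and 1 fragments, beside 2513 to 2769 fragments in each RSC sample. The ratio of their rates, RSC over SCP, from the 6 and 7932 fragments was 1548, with an exact 95% interval of 711 to 4221 that covers counting error only. The fitted log2 fold change was 8.95 (SE 0.19) and depended on the pseudocount, being 10.52 with 0.1 FPKM in place of 1. Leukocyte markers differed between the same samples, at 24.1 to 71 FPKM in sum in SCPs and 3025 to 3834 in RSCs, and their part in the Lgals3 values was not tested. Among RSC samples Lgals3 had the lowest spread of the 10 genes, with a CV of 1.45%.

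Lgals1, the small galectin that acts as a dimer, was the most abundant of the 10 in both groups. Its locus spans 120153184 to 120156290 on chromosome 7. Its FPKM was 232, 320.0 and 372 in SCPs and 3204, 2759 and 3514 in RSCs, with a log2 fold change of 3.37 (SE 0.19). By mean FPKM it stood at place 234 among all symbols in SCPs and at place 9 in RSCs. Unnamed transcripts at its locus held 1329, 504 and 1427 FPKM in the RSC samples and 70.6 FPKM in SCP replicate 2, and with them the log2 fold change was 3.69. Lgals3 per Lgals1 was at most 0.00396 in SCPs and ranged from 0.203 to 0.254 in RSCs.

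Lgals3bp, which is secreted and binds galectin-3, integrins and fibronectin, had FPKM of 3.43, 4.44 and 4.66 in SCPs and 115, 109 and 118 in RSCs. It lies on chromosome 10 from 107415334 to 107424672. The log2 fold change was 4.48 (SE 0.13), and the values rested on 39 to 54 fragments in the SCP samples. Both groups were even, with CVs of 15.7% and 3.96%.

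Of the 10 genes, 8 had a log2 fold change over 2, that is 4-fold, as did 8.83% of the 13003 genes in this direction. In all 10 the lowest RSC sample lay above the highest SCP sample, as in 24.9% of the tested genes. Because the genes were chosen by these values, nothing is read from either count. The values of Anxa5 and Anxa7 lie nearest to the threshold, at 1.98 just outside and 2.48 just inside.

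**Figure D3:**
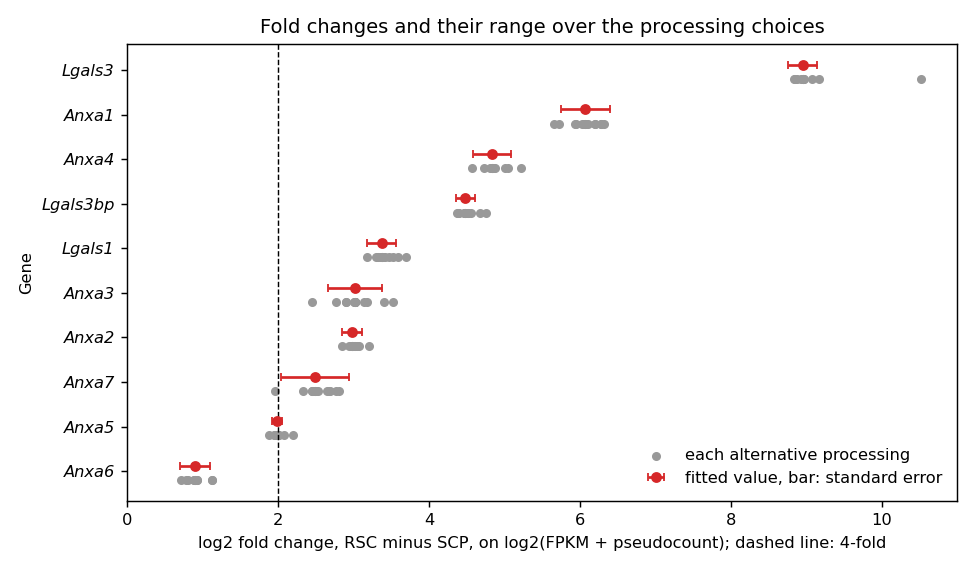
Log2 fold change of each gene, RSC minus SCP (red, bar: SE), and the same value under each alternative processing (grey), with 4-fold as a dashed line. All values lie above 0, Lgals3 reaches 10.52 with a smaller pseudocount, and Anxa7 and Anxa5 have values on both sides of the line.

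The order of the genes by level differed between the groups. In SCPs the order was Lgals1, Anxa6, Anxa2, Anxa5, Anxa7, Anxa1, Lgals3bp, Anxa4, Anxa3 and Lgals3. The values of Anxa6, Anxa2 and Anxa5 overlapped from 1 to the next, and so did those from Anxa7 down to Anxa3, so that these neighbours did not differ beyond their spread. In RSCs the order was Lgals1, Lgals3, Anxa2, Anxa1, Anxa5, Anxa6, Lgals3bp, Anxa4, Anxa7 and Anxa3. There the values overlapped only between Lgals3 and Anxa2 and between Lgals3bp and Anxa4. Lgals3 moved from the last place of the 10 to the second, and from place 13961 to place 106 among all symbols.

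Within the SCP group the genes tended to be low in the same sample. SCP replicate 1 had the lowest value in 8 of the 10 genes, the exceptions being Anxa3 and Lgals3, and in 6 of the 10 with unnamed transcripts added, Anxa1 and Anxa7 then being lower elsewhere. It was the lowest SCP sample for 33.6% of all tested genes and for 14 of the 15 leukocyte markers tested. Whether these belong together was not tested.

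**Figure D4:**
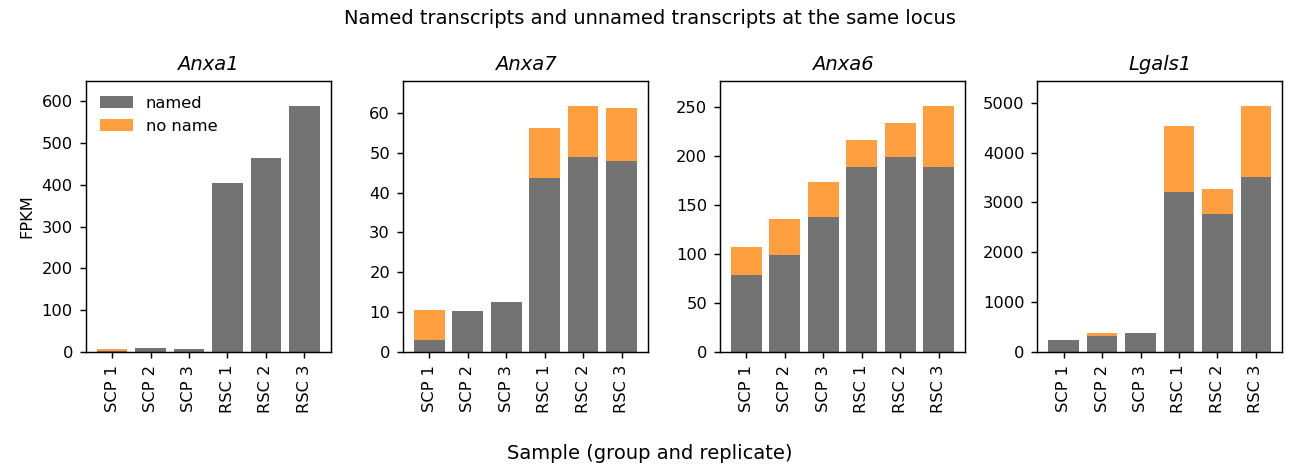
FPKM of named transcripts (grey) and of transcripts without a gene name at the same locus (orange), stacked, in each of the 6 samples for Anxa1, Anxa7, Anxa6 and Lgals1. For Anxa1 and Anxa7 the unnamed part is largest in proportion in SCP replicate 1, at 58.7% and 70.7% of the total. For Anxa6 it is largest in SCP replicate 2, at 27.5%, and for Lgals1 in RSC replicate 1, at 29.3%.

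The rest of the 2 families was examined next, from a list of 15 symbols of which 14 were in the tables. Of these 14, 5 passed the filter, and 3 of the 5 were higher in RSCs with p under 0.01, beside 18.1% of all tested genes that were higher at that threshold. None of the 5 was lower, beside 22.4% of all tested genes. Anxa11, which tethers RNA granules to lysosomes, had FPKM of 4.28, 4.68 and 4.24 in SCPs and 32.7, 35.2 and 26.4 in RSCs. Its log2 fold change was 2.58 (SE 0.15, limma adjusted p = 8.3e-05), and the groups lay far apart. Lgals8, a galectin with a pair of binding domains that marks damaged vesicles for autophagy, was at 6.78, 6.62 and 5.77 FPKM in SCPs and 22.7, 19.6 and 20.4 in RSCs. Its log2 fold change was 1.57 (SE 0.13, limma adjusted p = 3.0e-04). Lgals9, another galectin with paired domains, was at 2.75, 2.16 and 4.36 FPKM in SCPs and 22.3, 17.9 and 13 in RSCs, and its log2 fold change was 2.20 (SE 0.28, limma adjusted p = 0.0016). The groups of Lgals8 and Lgals9 did not overlap either. Groups apart with RSCs higher were thus found in 3 of the 5 genes, beside 24.9% of all tested genes.

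The other members of the families gave no call. Lgals5, a galectin of rat red cell precursors, was at 0, 1.07 and 2.17 FPKM in SCPs and 1.08, 3.56 and 1.66 in RSCs, with a log2 fold change of 0.65 (SE 0.52, limma adjusted p = 0.36). Lgalsl, a galectin-related protein, was at 1.44, 3.36 and 4.86 FPKM in SCPs and 2.04, 8.55 and 7.94 in RSCs, with a log2 fold change of 0.69 (SE 0.56, limma adjusted p = 0.36). In both genes the groups overlapped. The 9 genes under the filter were Anxa8, Anxa9, Anxa10, Anxa13, Lgals2, Lgals4, Lgals7, Lgals12 and Grifin. Their highest value in any sample was 2.61 FPKM, that of Lgals7 in SCP replicate 1, and Lgals2 was listed at 0 in all 6 samples.

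Proteins that bind annexins were mostly higher in RSCs, in a list written by hand. Earlier results of these data were known when this list and those that follow were written, so their counts are a description. Of 12 tested genes of that list 11 were higher with p under 0.01, none was lower and 1 did not pass, beside 18.1% higher and 22.4% lower among all tested genes. The median log2 fold change was 1.94, beside -0.17 over all tested genes. S100a10, the partner of Anxa2, was at 148, 149.6 and 165 FPKM in SCPs and 669, 616 and 651 in RSCs, with a log2 fold change of 2.06 (SE 0.07, limma adjusted p = 2.5e-05). S100a10 per Anxa2 was 2.12, 1.57 and 1.81 in SCPs and 1, 0.958 and 0.908 in RSCs. In named transcripts the RNA of the pair was thus near parity in RSCs and held more S100a10 in SCPs. With unnamed transcripts S100a10 was at 669, 701 and 855 FPKM in RSCs, while Anxa2 stayed at 669, 643 and 717.

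The widest changes in that list were those of 2 S100 proteins, small calcium sensors that bind several annexins. S100a4 was at 0.601, 1.11 and 3.19 FPKM in SCPs and 1815, 1753 and 1870 in RSCs, and its log2 fold change was 9.55 (SE 0.35, limma adjusted p = 2.5e-05). S100a6 was at 2.93, 5.03 and 15.4 FPKM in SCPs and 1550, 1669 and 1716 in RSCs, and its log2 fold change was 7.82 (SE 0.51, limma adjusted p = 1.3e-04). Macrophages and fibroblasts, which the plating step was meant to deplete, also express both genes. Their markers differed between the same samples, and their part in these values was not tested.

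The receptors of Anxa1 were not detected at a level that could be compared. Fpr1, Fpr2 and Fpr3, the formyl peptide receptors, summed to at most 0.231 FPKM in SCPs and 0.162 in RSCs, and Fpr2 was listed at 0 in all 6 samples. None of the 3 passed the filter.

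Genes of membrane repair were called higher in 10 of 18 tested cases, lower in 1 and did not pass in 7, beside 18.1% higher and 22.4% lower among all tested genes. The median log2 fold change was 1.28. Myof, a ferlin that fuses vesicles with the plasma membrane, was at 1.94, 2.3 and 2.93 FPKM in SCPs and 119, 117 and 128 in RSCs (log2 fold change 5.18, SE 0.14, limma adjusted p = 1.4e-05). Ehd2, an ATPase at the neck of caveolae, was at 2.44, 0 and 2.96 FPKM in SCPs and 56.8, 95.9 and 75.5 in RSCs (log2 fold change 4.98, SE 0.56, limma adjusted p = 9.3e-04). With unnamed transcripts Ehd2 was at 4.41, 9.44 and 11.1 FPKM in SCPs and 103, 128 and 109 in RSCs. The log2 fold change was then 3.69. Dysf, the ferlin named for dysferlin myopathy, was between 0.403 and 1.99 FPKM in all 6 samples, and its groups overlapped. Ehd1, an ATPase of endosome recycling, was the gene called lower, at 71.9, 63.2 and 70.9 FPKM in SCPs and 27.9, 34.3 and 36.8 in RSCs (log2 fold change -1.04, SE 0.13, limma adjusted p = 0.0013). The related ATPases Ehd1 and Ehd2 thus moved in opposite directions.

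Of 11 tested genes that recognise or expose phosphatidylserine, the lipid that Anxa5 binds, 6 were higher in RSCs, 2 were lower and 3 did not pass, beside 18.1% higher and 22.4% lower among all tested genes, so that the lower share was near the background. The median log2 fold change was 1.66. Jmjd6, once described as a phosphatidylserine receptor and now known as a nuclear hydroxylase, was listed at 0 in the 3 SCP samples and at 11.1, 11 and 14.9 FPKM in RSCs (limma adjusted p = 7.2e-05). It passed the filter through its level in RSCs alone. Stab1, a scavenger receptor of macrophages and sinus endothelium, was at 0, 4.84 and 3.57 FPKM in SCPs and 15.5, 36.9 and 29.6 in RSCs (log2 fold change 3.16, SE 0.73, limma adjusted p = 0.015). Megf10, an engulfment receptor of glia, was lower in RSCs, at 38.5, 24.1 and 40.4 FPKM in SCPs and 2.24, 1.87 and 1.36 in RSCs (log2 fold change -3.62, SE 0.25, limma adjusted p = 1.6e-04). Mfge8, a secreted bridge between phosphatidylserine and integrins, was at 138, 155 and 148 FPKM in SCPs and 77.4, 93.5 and 83.2 in RSCs (log2 fold change -0.79, SE 0.10, limma adjusted p = 0.0012). The list therefore held genes that were higher and genes that were lower in RSCs. Erythroid, skeletal muscle and neuronal markers were also lower in RSCs (4 of 4, 5 of 6 and 2 of 4 tested), beside 22.4% of all tested genes. Their part in the values of genes lower in RSCs, here and in the lists below, was not tested.

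Mertk, a receptor that takes up dying cells and also binds galectin-3, was divided between named and unnamed transcripts. Its named FPKM was 0, 3.07 and 0 in SCPs and 13.7, 16.8 and 0 in RSCs, and it did not pass the test. With the unnamed transcripts of its locus it was at 3.59, 3.07 and 3.31 FPKM in SCPs and 63, 52.8 and 39.8 in RSCs.

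Of 17 tested glycoproteins that galectins are known to bind, Lgals3bp left aside, 9 were higher in RSCs, 4 were lower and 4 did not pass, beside 18.1% higher and 22.4% lower among all tested genes, so that the lower share was near the background. The median log2 fold change was 0.83. Cd44, the hyaluronan receptor, was at 0.709, 0.788 and 1.49 FPKM in SCPs and 82.9, 75.1 and 83.2 in RSCs (log2 fold change 5.37, SE 0.18, limma adjusted p = 2.4e-05). Its SCP mean of 0.997 FPKM lay under the filter, which Cd44 passed through its level in RSCs. Fn1, fibronectin, was at 97.7, 177 and 124 FPKM in SCPs and 909, 1080 and 885 in RSCs (log2 fold change 2.88, SE 0.22, limma adjusted p = 2.4e-04). Both are also made by fibroblasts and leukocytes. Ncam1, a neural adhesion molecule, was at 7.27, 8.23 and 10.2 FPKM in SCPs and 4.09, 2.42 and 1.55 in RSCs (log2 fold change -1.42, SE 0.30, limma adjusted p = 0.01). L1cam, a related adhesion molecule, was at 44.2, 37.6 and 30.5 FPKM in SCPs and listed at 0, 0 and 13 in RSCs (limma adjusted p = 0.024), a call that the adjustment ends. With unnamed transcripts L1cam was at 44.2, 37.6 and 40.5 FPKM in SCPs and 19.9, 16.6 and 16.2 in RSCs.

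Enzymes that branch N-glycans and build the sugar chains galectins bind were examined last. Of 19 tested, 3 were higher in RSCs, a share near the 18.1% of all tested genes, 1 was lower, beside 22.4% of all, and 15 did not pass. The count of higher genes was 5 without RSC replicate 2, 6 with median-of-ratios scaling and 8 with unnamed transcripts added. The median log2 fold change was 0.51. St3gal4, which caps galactose with sialic acid, was at 19.2, 28.6 and 16.8 FPKM in SCPs and 96, 61.8 and 77.4 in RSCs (log2 fold change 1.83, SE 0.25, limma adjusted p = 0.0019). B3gnt2, which extends chains of N-acetyllactosamine, was at 2.21, 2.48 and 3.9 FPKM in SCPs and 7.93, 14.1 and 13 in RSCs (log2 fold change 1.70, SE 0.29, limma adjusted p = 0.0043). Mgat5, whose branches galectin-3 binds, was at 2.43, 1.9 and 1.57 FPKM in SCPs and 1.52, 5.97 and 6.22 in RSCs, with overlapping groups and no call. B4galt2, a galactose transferase, was at 30.7, 29.1 and 26.7 FPKM in SCPs and 16.5, 19.2 and 20.2 in RSCs (log2 fold change -0.61, SE 0.12, limma adjusted p = 0.0081).

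**Figure D5:**
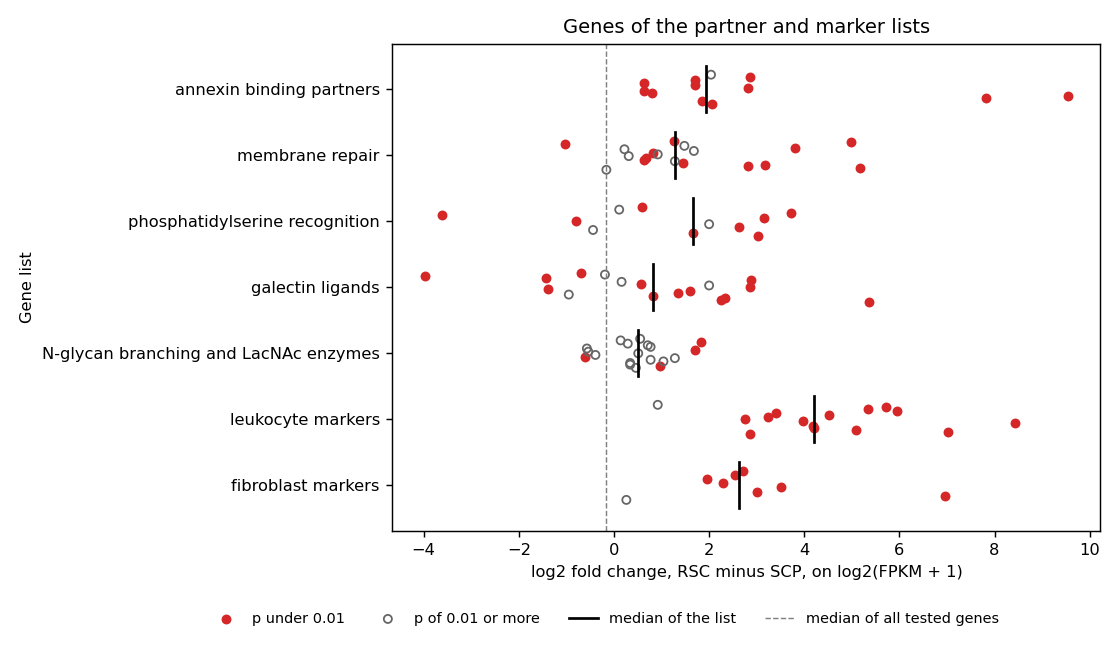
Log2 fold change, RSC minus SCP, of each tested gene in 5 partner lists and 2 marker lists (filled: p under 0.01), with the list median (black line) and the median of all 13003 genes (dashed, -0.17). The medians run from 0.51 for the glycan enzymes to 4.20 for the leukocyte markers.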

How the data were processed

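The authors prepared stranded mRNA libraries, sequenced paired ends and mapped them to rn6. The submitters' processing notes name FastQC 0.11.2, TopHat2 2.1.0 and Cufflinks 2.2.1. For each of the 6 samples the authors deposited a table of transcripts in FPKM, with the coverage signal of each transcript, which was used here only as a measure of relative depth. The tables hold no counts, so no count test was run. Each of them has 77 transcripts with names turned into dates, which were left out, and FPKM of named transcripts were summed by symbol.

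The comparison used limma (version 3.58.1, R version 4.3.3) and values of log2(FPKM + 1), with a variance trend, 2-sided tests and no replicate block. Benjamini-Hochberg adjustment ran over 13003 genes, and a call required an unadjusted p under 0.01, the study's threshold. The test was checked on simulated data, where it recovered fewer of the changed genes than a bound set beforehand. That bound was lowered after the value was seen, while the signs, the fitted size and the rate of false calls came out close to those simulated. Fragments per sample were estimated from the steps of low values. Unnamed transcripts were assigned to a gene where they overlapped it in the same Cufflinks locus.

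The members and gene lists were chosen with earlier results of these data known. Named were all members, family genes over the filter, in each partner list the 2 called genes that rose and fell most, and marker genes. Other genes named (S100a10, Dysf, Mertk, Mgat5, Fpr1, Fpr2, Fpr3 and family genes under the filter) were chosen after their values were seen. Lists were written by hand, and Ahnak, Pdcd6, Mertk, Ptprc and Kdr stand in 2 of them. One lineage marker is not reported here.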

Additional observations from a re-analysis of the deposited data

Results flagged for a closer look

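Unnamed transcripts, which the gene levels do not include, held more FPKM in every RSC sample than in any SCP sample at 2 of the 10 loci. Their median in RSCs was 1329 FPKM at Lgals1 and 13 FPKM at Anxa7. The share of all loci with such a difference was not computed, so nothing is read from the count of 2. Groups of 3 samples are too small for a test of single outlying samples.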

How the results depend on the processing

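The log2 fold changes of the 10 genes kept their sign in all 150 combinations of a gene and an alternative, and 140 moved by less than the SD between replicates. Both counts include alternatives that cannot move a fitted fold change: the changed filters, the fit without a variance trend and the replicate block. With the groups apart in all 10 genes, leaving out a sample cannot reverse a sign either. Nothing is therefore read from the 2 counts. Of the 10 genes 7 to 9 exceeded 4-fold when 1 sample was left out, 7 without SCP replicate 1, which took Anxa7 under it. The 3 calls among other family genes held under every alternative. In the partner lists, 37 genes were called higher (34 to 48 over the alternatives) and 8 lower. The latter fell to 5 with median-of-ratios scaling, to 5 with adjusted p, to 4 with the replicate block, and to 5 to 8 with a sample left out, down to 5 without SCP replicate 2, SCP replicate 3 or RSC replicate 2. The calls of L1cam, Ncam1, Stab1 and B4galt2 ended under at least 1 alternative, B4galt2 with the highest transcript per gene, at -0.34. The causes were not tested. With unnamed transcripts added, 4789 genes were lower in RSCs in place of 2917. Of all calls 44.6% were higher in RSCs, and 56.1% with median-of-ratios scaling. With the replicate block, 2022 genes in place of 2351 were called higher. Samples with the same replicate number did not deviate together (r = 0.044, -0.0049 and 0.026), and samples of 2 of the 3 numbers correlated best with their own. Levels under about 1 FPKM rest on a few fragments.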
